A study of Mus musculus with 74 samples.

Results

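The cytochrome P450 genes of families 1 to 3 were followed in adipose tissue and liver of mice given 1 of 3 drugs. The set held each gene whose symbol is Cyp followed by family number 1, 2 or 3, a subfamily letter and a gene number, and that had a probe set with no other gene's symbol. It came to 43 of the 18193 genes measured, 3 in family 1, 35 in family 2 and 5 in family 3, spread over 14 subfamilies. Each gene was read from its brightest probe set over the 74 arrays, and levels are log2 of the deposited intensity. A level belongs to its own probe set, so levels of different genes were not ranked against each other. Of the 43 probe sets, 5 carry a suffix for probes that can bind more than 1 transcript, of the same or of related genes. The suffix is _s_at for Cyp2c23 and Cyp2c65, and _a_at for Cyp1a1, Cyp2d9 and Cyp2f2. 1 further probe set, with the symbols of both Cyp2a5 and Cyp2a4, was left out.

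The animals were male B6C3F1 mice, a first-generation cross of inbred strains. For 15 or 29 days they were given vehicle or a drug each day. Fenretinide was fed at 500 mg/kg, and troglitazone and Elmiron were given orally at 1200 and 1000 mg/kg. The labels ask when proliferation or hypoxia appears in the organs where these compounds gave hemangiosarcomas, which are tumours of blood vessel lining. White fat of the fenretinide study came from 3 vehicle and 3 treated mice on day 15 and from 4 and 4 on day 29. Of the mice with troglitazone, brown fat and liver were taken, and of those with Elmiron the liver, with 5 mice per group and day and as many vehicle mice. Fenretinide is a synthetic retinoid, troglitazone an agonist of the nuclear receptor PPARγ, and Elmiron is pentosan polysulfate, a sulfated polysaccharide. Each drug had its own study, vehicle mice and dose, so compound, dose and study cannot be told apart. The age of the mice is not given in the sources used here.

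P450 enzymes of these families are haem proteins of the endoplasmic reticulum that oxidise drugs, pollutants, steroids and fatty acids, with electrons passed on by P450 reductase. The liver makes most of them, and foreign compounds raise particular members through nuclear receptors: the Ah receptor drives the Cyp1 genes, CAR (gene Nr1i3) is best known for Cyp2b10 and PXR (Nr1i2) for Cyp3a11. Cyp2b10 and Cyp3a11 are therefore the usual reporters of enzyme induction in mouse liver.

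Of the 43 genes, 35 had an entry in the RefSeq promoter table (build GRCm38.p6). The 250 bases before the start of Cyp2b10 are printed with those of its neighbours in subfamily 2b and of Cyp3a11, because Cyp2b10 was the member that responded to a drug and the other 3 did not pass the test. They lie at chr7:25897408-25897657 (Cyp2b10, plus strand), chr7:26173159-26173408 (Cyp2b9, plus strand), chr7:26061245-26061494 (Cyp2b13, plus strand) and chr5:145879855-145880104 (Cyp3a11, minus strand). Each is written 5′ to 3′ and ends at the base before the start given in the promoter table. For Cyp2b9 and Cyp2b13 that start lies downstream of the annotated gene start (26173350 and 26061388), so their windows reach into the gene. Capitals mark the letters ATAAAA, a form of the TATA box, and AGGTCA, the half-site that nuclear receptors recognise, both searched on both strands and both chosen after these sequences had been seen.
Cyp2b10: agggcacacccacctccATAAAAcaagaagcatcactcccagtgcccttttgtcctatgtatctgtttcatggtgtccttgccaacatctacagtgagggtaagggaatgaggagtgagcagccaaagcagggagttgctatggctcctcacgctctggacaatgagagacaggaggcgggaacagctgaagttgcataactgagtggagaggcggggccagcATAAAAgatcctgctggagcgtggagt
Cyp2b9: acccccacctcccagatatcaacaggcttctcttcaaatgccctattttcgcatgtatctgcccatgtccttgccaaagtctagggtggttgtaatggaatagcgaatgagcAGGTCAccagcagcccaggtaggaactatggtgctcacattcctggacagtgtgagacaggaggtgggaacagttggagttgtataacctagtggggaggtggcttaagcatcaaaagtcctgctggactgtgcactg
Cyp2b13: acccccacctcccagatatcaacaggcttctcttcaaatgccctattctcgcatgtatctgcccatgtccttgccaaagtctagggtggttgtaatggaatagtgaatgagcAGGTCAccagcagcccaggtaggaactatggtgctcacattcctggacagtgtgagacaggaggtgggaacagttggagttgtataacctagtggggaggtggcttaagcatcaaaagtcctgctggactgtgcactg
Cyp3a11: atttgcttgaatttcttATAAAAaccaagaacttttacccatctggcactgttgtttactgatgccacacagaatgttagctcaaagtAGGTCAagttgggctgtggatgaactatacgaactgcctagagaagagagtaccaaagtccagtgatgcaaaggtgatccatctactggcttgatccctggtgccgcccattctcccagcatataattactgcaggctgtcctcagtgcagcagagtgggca
Cyp2b10 held ATAAAA with its first base 27 and 233 bases before the start, and neither Cyp2b9 nor Cyp2b13 held it. Cyp2b9 and Cyp2b13 each held AGGTCA 138 bases before the start, and their windows were the same at 248 of 250 bases. Cyp2b10 matched each of them at 182 of 250 bases in a gapped alignment, or 72.8%, and matched Cyp3a11 at 55.2%. Cyp3a11 held ATAAAA at 233 and AGGTCA at 162 bases before the start. ATAAAA occurred in 17.6% of all 27025 promoter windows and in 11 of the 35 members' windows. AGGTCA occurred in 13.8% of all windows and also in 11 of the members'. A match of letters is a description of the window, and no factor binding was measured.

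In vehicle mice the set was mainly a liver set. All 20 liver values lay above all white fat values for 33 of the 43 genes and above all brown fat values for 30, against 22.5% and 12.4% of all genes. Without brown fat of vehicle mice 42 and 82, which carried liver transcripts, the count against brown fat was 31, against 15.5% of all genes. White fat and liver come from separate studies, so that order is given without a test. Brown fat and liver were both taken in the troglitazone study, and there limma called 37 of the 43 genes different between the tissues on each day (adjusted p below 0.05), 35 higher in liver and 2 lower. Of all 18193 genes 63.1% were called on day 15 (35.1% higher in liver and 28.1% lower) and 65.8% on day 29 (37.5% higher and 28.3% lower). Without mouse 42 the day 15 count was 35, with Cyp2b13 and Cyp2j13 no longer called. Without mouse 82 the day 29 count was again 37, with Cyp2s1 called (0.55 ± 0.16, limma adjusted p = 0.003333) and Cyp2b9 no longer called. In bulk tissue, fewer cells of a type and less RNA per cell cannot be told apart.

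The 8 called genes named for this contrast belong to subfamilies 3a, 2d, 2j, 1a and 2c. Each gap is that of its own probe set, and the brown fat readings outside mice 42 and 82 lie toward the dim end of the scale, with no detection calls to say whether they are above background. On day 15 Cyp3a25, a second Cyp3a gene of adult liver, was 9.17 ± 0.70 (SE, log2) higher in liver than in brown fat. Cyp2d10 was 9.03 ± 0.49 higher and Cyp2j5, an enzyme that makes epoxides from arachidonic acid, 8.48 ± 0.44 higher. The gap was 8.39 ± 0.47 for Cyp2d26, 8.10 ± 0.77 for Cyp3a11 and 7.96 ± 0.47 for Cyp2d9, which hydroxylates testosterone in male mouse liver. It was 7.92 ± 0.40 for Cyp1a2, an oxidiser of aromatic amines, and 7.72 ± 0.36 for Cyp2c37. Without mouse 42 the day 15 gap was 9.66 for Cyp3a25 and 8.77 for Cyp3a11. On day 29 these 8 genes differed by 7.23 to 8.37, and by 8.15 to 9.57 without mouse 82. Cyp2c50 differed by 7.36 on day 29, and by 8.20 without mouse 82. The largest adjusted p among the 8 on either day was 7.409e-11 in limma's test, for Cyp3a11 on day 29.

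In the 20 vehicle livers 6 probe sets were bright, where the highest value of the whole table was 15.21. Cyp2e1, which oxidises ethanol, averaged 14.78 there, Cyp3a11 14.61 and Cyp2c29 14.43. Cyp2f2, known for activating naphthalene, averaged 14.30, Cyp2d9 14.20 and Cyp2c70, which makes the mouse bile acid muricholic acid, 14.15. Cyp2a12, which hydroxylates bile acids in the mouse, averaged 13.75 and Cyp2r1, a vitamin D 25-hydroxylase, 9.59.

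A few members were not liver genes in these animals. Cyp1b1, an Ah receptor target that oxidises oestradiol and is known from tissues outside the liver, ran from 5.79 to 6.53 in vehicle liver, from 7.08 to 10.43 in brown fat and from 9.0 to 10.67 in white fat. Its brown fat and white fat values all lay above its liver values. In limma's test Cyp1b1 was 1.83 ± 0.36 lower in liver than in brown fat on day 15 (adjusted p = 4.36e-05). The day 29 value for Cyp1b1, -1.80 ± 0.36 (limma adjusted p = 5.367e-05), became -1.18 ± 0.23 without brown fat vehicle mouse 82, which read 10.43 for Cyp1b1 and had a brown adipocyte mean of 7.59.

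Cyp1a1, the classic inducible Ah receptor target, was the other gene called lower in liver than in brown fat. It ran from 7.02 to 7.99 in vehicle liver and from 7.77 to 9.0 in brown fat. The 7.77 belongs to mouse 82, and the other brown fat values (8.28 to 9.0) all lay above liver. The limma difference was -1.09 ± 0.24 on day 15 (adjusted p = 0.0001676) and -1.02 ± 0.24 on day 29 (adjusted p = 0.0003343). Without mouse 82 the day 29 value was -1.23 ± 0.23 (limma adjusted p = 1.91e-05). In white fat Cyp1a1 ran from 6.94 to 7.95, which overlapped liver. Cyp2s1, a P450 of epithelia, was higher in white fat (7.17 to 8.54) than in liver on average by 1.15, with ranges that overlapped. Cyp2j9 was the second gene with all white fat values (7.75 to 8.38) above all liver values (6.88 to 7.42).

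Cyp2e1 was bright in all 3 tissues. It ran from 14.33 to 14.89 in white fat, 12.43 to 14.79 in brown fat and 14.72 to 14.83 in liver. The 14.79 belongs to mouse 82, and the other vehicle brown fat samples read 13.64 or less. White fat and liver overlapped, and in limma's test liver exceeded brown fat by 1.53 ± 0.27 on day 15. Cyp2d22 averaged 9.05 in white fat, 10.23 in brown fat and 12.10 in liver, and Cyp2u1, which hydroxylates long-chain fatty acids, averaged 7.31, 8.95 and 9.77. Cyp2b10 averaged 7.70, 7.97 and 9.34, and its liver values (8.60 to 10.59) all lay above those of both fats. With all samples, Cyp2b19, Cyp2c65, Cyp2j9, Cyp2j11 and Cyp2s1 were not called between liver and brown fat on either day.

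**Figure D1:**
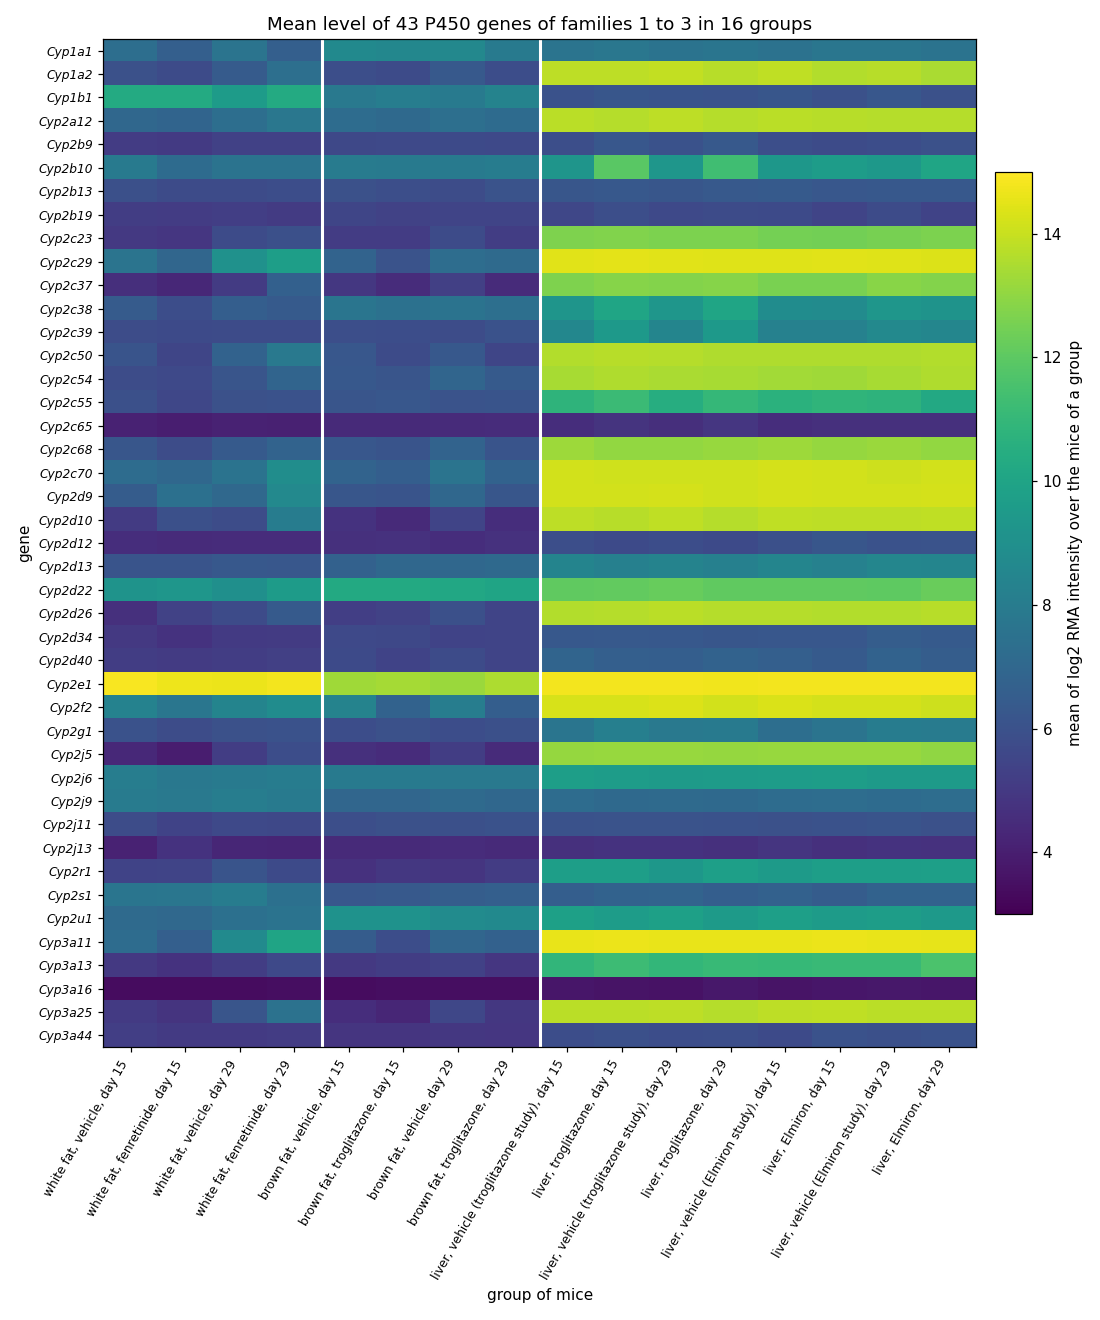
Mean log2 intensity (colour) of the 43 P450 genes (vertical axis) in the 16 groups of mice (horizontal axis), with white lines between white fat, brown fat and liver. Most genes are bright in the 8 liver groups and dim in the fat groups, Cyp2e1 is bright in all 3 tissues, and Cyp1b1 is brighter in fat.

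Some fat samples carried transcripts of liver, and this touches every liver-rich member in them. The mean of 14 hepatocyte markers was 14.47 to 14.66 in all livers. It was 11.69 or less in 33 of 34 fat samples and 12.16 in brown fat of vehicle mouse 82 on day 29. That sample read 14.61 for Alb and 5.91 for Ucp1, the uncoupling protein of brown adipocytes, and its 9 brown adipocyte markers averaged 7.59 against 12.61 or more in the brown fat of all other mice except troglitazone mouse 95 of day 29 (8.64). Troglitazone mouse 95 read 8.10 for Ucp1, and the other brown fat samples read 14.91 or more. Adipocyte markers such as Adipoq averaged 12.44 or more in all brown fat samples and 8.01 or less in liver. Which tissues the sample of mouse 82 holds was not tested, and the brown fat values with all samples include it. In white fat of day 29 vehicle mouse 86 had a hepatocyte mean of 10.47, and fenretinide mice 93 and 95 had 9.41 and 11.69.

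Cyp3a11 followed those values. It read 12.36 in brown fat of mouse 82, 9.18 in vehicle mouse 42 of day 15 (hepatocyte mean 8.55), 8.45 in troglitazone mouse 95 (7.81), and 4.63 to 6.84 in the other 17 brown fat samples. In white fat it read 11.55, 11.18 and 12.79 in mice 86, 93 and 95 of day 29, and 9.44, 9.13 and 9.07 in vehicle mice 49 and 85 and fenretinide mouse 58, whose hepatocyte means were 8.11, 8.06 and 7.54. How these transcripts came into the fat samples was not tested. For the main results in fat, values without the samples concerned are given beside those with all samples. Each fit for 1 day left out samples of that day only, while the SE is shared with the other day. In white fat of day 15 without mice 49 and 58, Cyp3a11 had an SE of 1.67. Its remaining samples read 6.16 and 6.17 in vehicle and 5.22 and 5.55 in treated mice. An uncalled value in such a fit therefore still carries the spread of samples kept on the other day. White fat of day 29 also differed in Ucp1. It read 13.44 and 11.69 in vehicle mice 85 and 86, and 12.82 and 14.66 in fenretinide mice 91 and 93. Vehicle mice 81 and 83 read 5.81 and 5.13, and fenretinide mice 94 and 95 read 7.51 and 7.56. Values without mice 86, 93 and 95 keep mice 85 and 91, and the part of brown adipocyte transcripts in them was not tested.

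**Figure D2:**
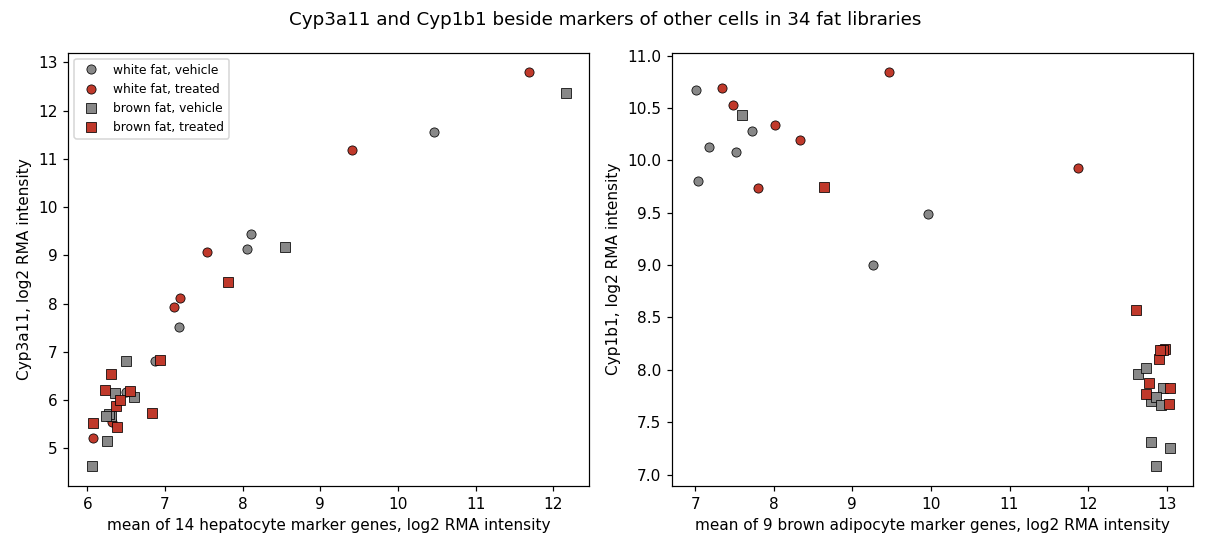
Each point is 1 of 34 fat samples: Cyp3a11 against the mean of 14 hepatocyte markers on the left, Cyp1b1 against the mean of 9 brown adipocyte markers on the right, all as log2 intensity. Cyp3a11 is at 12.36 and 12.79 in the samples whose hepatocyte means are 12.16 and 11.69, and among brown fat samples Cyp1b1 is highest, at 10.43 and 9.75, in the 2 with the lowest brown adipocyte means.

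Troglitazone raised Cyp2b10 in liver on both days, and no other member of the set passed the test. On day 15 the vehicle livers read 9.48, 9.19, 9.49, 8.65 and 9.47, and the treated livers 11.72, 12.46, 12.04, 11.87 and 11.53. The lowest treated liver stood more than 2 log2 units above the highest vehicle liver. The means were 9.25 ± 0.36 and 11.92 ± 0.35 (SD, n = 5 each), a rise of 2.67 ± 0.25 (SE) or 6.36-fold, with a 95% interval of 4.44 to 9.11-fold (limma adjusted p = 6.059e-06). In this comparison 1 of 43 members was called, against 0.0220% of all genes, which is 4 genes, all of them higher. Cyp2b10 was the first of the 18193 genes both by p and by size of change.

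On day 29 the vehicle livers read 8.65, 9.33, 9.47, 9.67 and 9.52 for Cyp2b10, and the treated livers 12.20, 11.73, 10.70, 11.11 and 10.80. The groups again did not overlap, and the treated mice were more spread (SD 0.64) than on day 15. The rise was 1.98 ± 0.25, or 3.94-fold with an interval of 2.75 to 5.65-fold (limma adjusted p = 0.0006047), and 0.115% of all genes were called, 0.0934% higher. The 2 other probe sets of Cyp2b10 rose by 2.84 and 2.92 on day 15 and by 2.24 and 2.19 on day 29, each with a limma adjusted p of 0.0003411 or less. The rise was 0.69 ± 0.35 smaller on day 29 than on day 15, which did not pass the test (limma adjusted p = 0.6624), and 0% of all genes passed in that contrast.

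Markers of macrophages leaned the same way in these livers. All 10 macrophage and Kupffer cell markers measured were above 0 with troglitazone on both days (median 0.28 on day 15 and 0.47 on day 29), and none was called. Their mean level was 8.52 to 9.15 in vehicle and 8.73 to 9.86 in treated livers on day 15, and 8.29 to 9.01 and 8.77 to 9.91 on day 29, so the groups overlapped where those of Cyp2b10 did not. The 14 hepatocyte markers had medians of 0.01 and -0.04, with none called. The part of cell composition in the Cyp2b10 values was not tested.

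**Figure D3:**
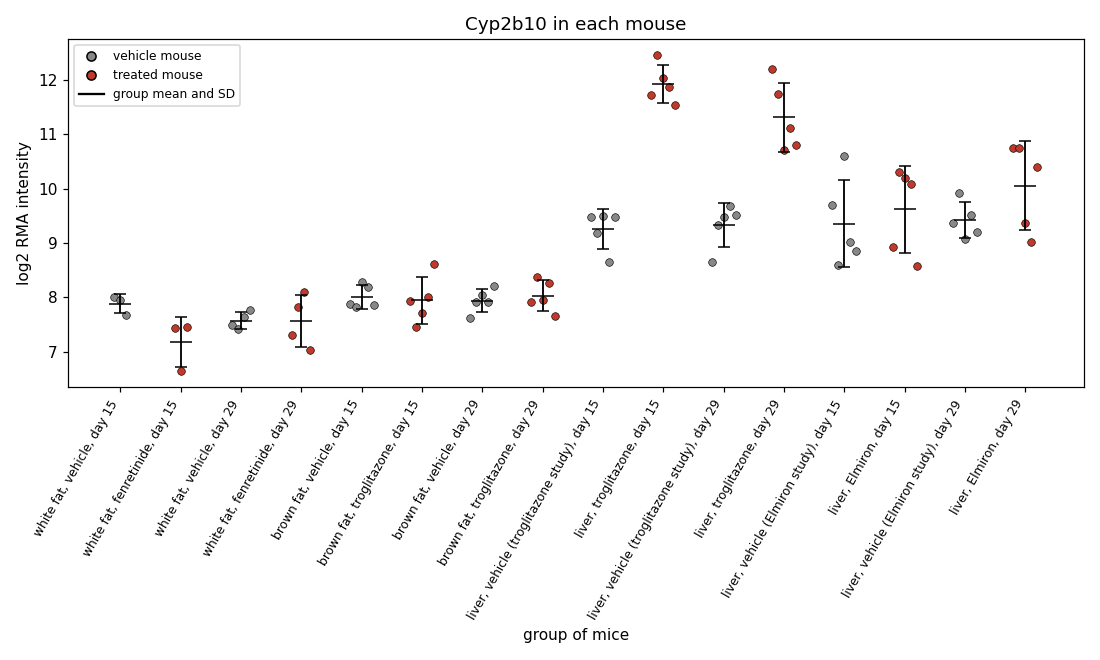
Cyp2b10 in each mouse (vertical axis, log2 intensity) in the 16 groups (horizontal axis), with grey points for vehicle, red for treated mice, and a black bar and whiskers for mean and SD. The troglitazone livers lie at 11.53 to 12.46 on day 15 and 10.70 to 12.20 on day 29, above all 20 vehicle livers (8.60 to 10.59).

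The neighbours of Cyp2b10 in subfamily 2b were not called. Cyp2b9, a gene more active in female liver, read 5.73 to 5.95 in vehicle and 6.02 to 6.41 in treated livers on day 15, a difference of 0.41 ± 0.11 (limma adjusted p = 0.5123), and 0.29 ± 0.11 on day 29 (adjusted p = 0.4295). Cyp2b13 differed by 0.11 ± 0.08 and 0.14 ± 0.08. Those 2 probe sets sat near the dim end of the scale in all tissues. A test of the difference between Cyp2b10 and its neighbours was not run.

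Several 2c genes sat higher in treated livers without passing the test. Cyp2c38, one of the mouse 2c enzymes that oxidise arachidonic acid, read 9.40, 9.40, 9.18, 9.23 and 9.09 in vehicle and 10.12, 10.06, 9.71, 10.36 and 10.09 in treated livers on day 15. The groups did not overlap, and the difference was 0.81 ± 0.17 (limma adjusted p = 0.1442). On day 29 Cyp2c38 read 9.23, 9.66, 9.27, 8.73 and 9.63 against 10.31, 9.51, 10.37, 9.83 and 10.21. One treated liver then fell inside the vehicle range, and the difference was 0.74 ± 0.17 (limma adjusted p = 0.1059). Without troglitazone mouse 93, the lowest treated liver for both genes, limma called Cyp2c38 and Cyp2c39 higher on day 29, which took the count of members called from 1 to 3. Leaving out the lowest treated value can only raise the difference, so these calls add no support.

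Cyp2c39, which hydroxylates retinoic acid in mouse liver, read 8.89, 8.66, 8.41, 8.37 and 8.53 in vehicle and 9.58, 9.50, 9.24, 9.89 and 9.01 in treated livers on day 15. The difference was 0.87 ± 0.22 (limma adjusted p = 0.4317) with no overlap. On day 29 it was 0.96 ± 0.22 (adjusted p = 0.1059), and the groups overlapped. Cyp2c55, a mouse gene known to respond to CAR and PXR, read 10.41 to 10.55 in vehicle and 10.65 to 11.43 in treated livers on day 29. That difference was 0.54 ± 0.14 (limma adjusted p = 0.1715), and on day 15 it was 0.40 ± 0.14 (adjusted p = 0.9568). Cyp2c70, of the same subfamily, differed by -0.02 ± 0.09 and -0.00 ± 0.09.

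Cyp3a11, the PXR reporter, lay between 14.52 and 14.73 in all 20 livers of the troglitazone study. The limma differences were 0.04 ± 0.07 on day 15 and -0.01 ± 0.07 on day 29, with 95% intervals of -0.09 to 0.18 and -0.14 to 0.13 (adjusted p = 0.9631 and 0.9862). The probe set sits near the top of the scale, and whether that limits these intervals was not tested. Cyp3a13, a gene of intestine as well as liver, was less bright (10.91 ± 0.05 in vehicle livers) and differed by 0.34 ± 0.13 on day 15, without overlap between the groups (limma adjusted p = 0.9568). On day 29 Cyp3a13 differed by 0.15 ± 0.13, with overlap (limma adjusted p = 0.7215). Cyp3a25 differed by -0.01 ± 0.07 and -0.15 ± 0.07, and Cyp3a44, a dim gene known from female liver, by 0.10 ± 0.22 and 0.03 ± 0.22.

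The family 1 genes and Cyp2e1 did not pass the test in troglitazone livers. Cyp1a1 differed by 0.18 ± 0.12 on day 15 and 0.10 ± 0.12 on day 29, Cyp1a2 by 0.01 ± 0.09 and -0.17 ± 0.09, and Cyp1b1 by 0.17 ± 0.12 and -0.08 ± 0.12. Cyp2e1 differed by -0.00 ± 0.06 and -0.04 ± 0.06. Of subfamilies not yet named, Cyp2g1, known from olfactory tissue, differed by 0.54 ± 0.20 on day 15 and 0.11 ± 0.20 on day 29. Cyp2r1 differed by -0.04 ± 0.14 and 0.42 ± 0.14, and Cyp2a12 by -0.10 ± 0.07 and -0.15 ± 0.07. The adjusted p of these 7 genes ran from 0.3876 to 0.9956 in limma's test.

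Of the 43 genes, 28 lay above 0 on day 15 (median 0.04, against -0.01 for all genes) and 18 on day 29 (median -0.03, against 0.00). Vehicle and treated livers did not overlap for 5 members on day 15 (Cyp2b10, Cyp2b9, Cyp2c38, Cyp2c39 and Cyp3a13), against 2.09% of all genes. On day 29 they did not overlap for 4 members, against 1.07% of all genes. These were Cyp2b10 and Cyp2c55, higher with treatment, and Cyp2d9 and Cyp2d10, lower by 0.11 ± 0.06 and 0.17 ± 0.06. At an unadjusted p below 0.05, 8 members were higher and 0 lower on day 15, and 8 higher and 3 lower on day 29. The share of all genes at that unadjusted threshold was not counted, here or for the comparisons below. Such counts are therefore not read as a lean of the set.

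**Figure D4:**
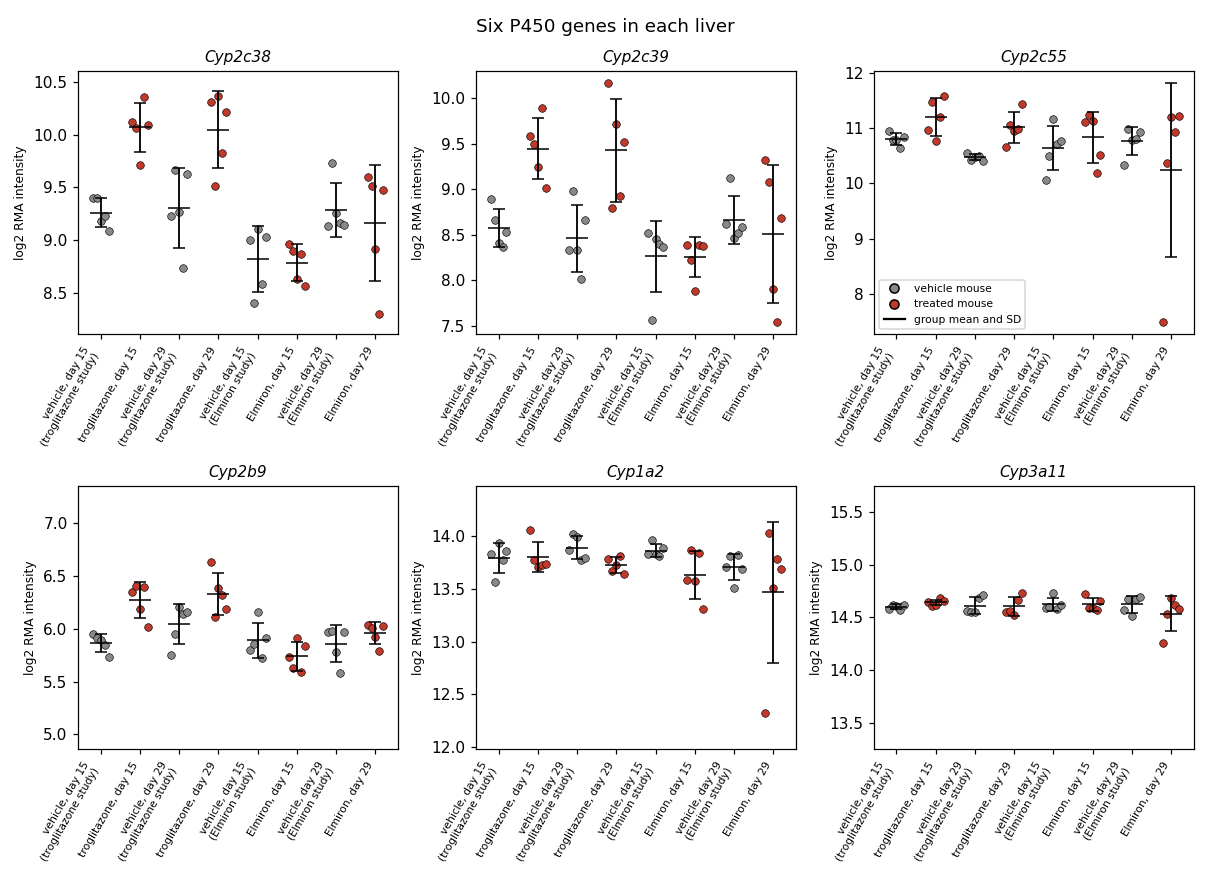
6 P450 genes in each liver (vertical axes, log2 intensity) by group (horizontal axes), with grey points for vehicle, red for treated mice, and mean and SD in black. Cyp2c38 and Cyp2c39 sit higher with troglitazone on day 15 without overlap, Cyp3a11 stays between 14.26 and 14.73 in all 40 livers, and 1 Elmiron liver of day 29 stands apart at 7.49 for Cyp2c55 and 12.32 for Cyp1a2.

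The genes around the P450 system were not called in troglitazone livers. Of 16 receptors and partners that control P450 genes, 7 lay above 0 on each day and 0 were called. Nr1i3 (CAR) differed by -0.05 ± 0.11 and 0.17 ± 0.11, Nr1i2 (PXR) by 0.12 ± 0.18 and 0.22 ± 0.18, and Ahr by 0.24 ± 0.21 and 0.00 ± 0.21. Of 14 genes of electron supply and haem synthesis or breakdown, 8 and 11 lay above 0 and 0 were called. Among them Alas1, the first enzyme of haem synthesis and a CAR and PXR target, differed by 0.14 ± 0.49 and 0.43 ± 0.49, so a change of 1 log2 unit would lie within its interval.

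Of 22 other CAR and PXR targets outside these families, 17 lay above 0 on day 15 (median 0.03) and 9 on day 29 (median -0.03), with 0 called on either day. Of 4 other Ah receptor targets, 1 and 3 lay above 0. Of 21 genes in other P450 families, 10 and 7 lay above 0, and of 4 flavin monooxygenases, 4 and 3. Of 10 male-biased liver genes 1 and 3 lay above 0 (median -0.18 and -0.05), and of 10 female-biased genes 7 and 6. None of these lists had a called gene in any comparison of treated with vehicle livers or brown fat.

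In brown fat Cyp2b10 was not called with troglitazone. On day 15 the vehicle samples read 7.88, 7.82, 8.29, 8.19 and 7.86 and the treated samples 7.93, 7.46, 7.72, 8.01 and 8.61. The difference was -0.06 ± 0.18, and on day 29 it was 0.09 ± 0.18 (limma adjusted p = 0.9998 on both days), with 95% intervals of -0.44 to 0.32 and -0.29 to 0.47. The Cyp2b10 effect was larger in liver than in brown fat by 2.73 ± 0.33 on day 15 (limma adjusted p = 1.399e-05) and by 1.89 ± 0.33 on day 29 (adjusted p = 0.01516). With a gene's probe sets averaged, the day 29 difference was 2.0 and not called (limma adjusted p = 0.0843). Without mouse 42 the difference was 2.78 on day 15, and without mice 82 and 95 it was 1.87 on day 29, both called. It was the 1 member called in this contrast on each day, where 0.0220% and 0.0165% of all genes were called, 0.0165% and 0.0110% with a larger effect in liver.

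No member was called in brown fat, where limma called 0.0605% of all genes on day 15 and 0.0550% on day 29. At an unadjusted p below 0.05, 0 members were higher and 2 lower on day 15, and 2 higher and 2 lower on day 29. Cyp2f2 stood out on day 15, with 8.91, 8.68, 7.90, 8.04 and 8.20 in vehicle and 7.24, 6.95, 6.54, 6.65 and 6.42 in treated samples. It was the 1 member without overlap, against 3.25% of all genes, and the difference was -1.59 ± 0.62 (limma adjusted p = 0.9998). Without mouse 42 it was -1.50 ± 0.68. The SE is shared with day 29, where vehicle brown fat ran from 5.46 to 10.92 (SD 1.93, against 0.43 on day 15). With the 2 groups of day 15 alone, limma called Cyp2f2.

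On day 29 Cyp2f2 read 10.92, 8.06, 7.92, 5.46 and 8.04 in vehicle and 6.20, 6.31, 5.80, 7.36 and 7.33 in treated brown fat. The groups overlapped, and the 10.92 belongs to mouse 82. The difference was -1.49 ± 0.62 (limma adjusted p = 0.7538), and without vehicle mouse 82 and troglitazone mouse 95 it was -0.96 ± 0.46 (adjusted p = 0.3323). Whether the spread of Cyp2f2 comes with other cells in these samples was not tested.

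Cyp1a1 differed by -0.14 ± 0.31 on day 15 and -0.70 ± 0.31 on day 29 in brown fat (limma adjusted p = 0.9998 and 0.7639). Cyp1b1 differed by 0.22 ± 0.49 and 0.41 ± 0.49. Without mice 82 and 95, which read 10.43 and 9.75, the day 29 value of Cyp1b1 was 0.69 ± 0.17 (limma adjusted p = 0.05207), just short of the threshold. In all, 17 and 16 of the 43 members lay above 0 in brown fat on the 2 days (median -0.06 and -0.14, against 0.00 and 0.01 for all genes). These counts include the samples with transcripts of other tissue. Without mouse 42, 23 members lay above 0 on day 15 (median 0.02), and without mice 82 and 95, 26 lay above 0 on day 29 (median 0.03).

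On day 29 the groups overlapped for all 43, against 0.759% of all genes without overlap. Without mice 82 and 95 they did not overlap for 3 members, against 6.93% of all genes. These were Cyp1b1 (7.08 to 7.66 in vehicle and 7.77 to 8.57 in treated samples), Cyp2c39 and Cyp2d40, with 0 members called by limma.

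With Elmiron no member was called in liver. On day 15 limma called 0% of all genes, and on day 29 it called 1 gene, 0.00550%, which was not a P450 of these families. At an unadjusted p below 0.05, 0 members were higher and 1 lower on day 15, and 1 higher and 2 lower on day 29. The members were centred on 0, with 19 and 17 of 43 above it and medians of -0.01 and -0.02.

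Cyp2b10 was scattered in the Elmiron study, in vehicle livers on day 15 and in treated livers on both days. On day 15 the vehicle livers read 9.70, 8.60, 10.59, 9.02 and 8.86 and the treated livers 8.93, 10.30, 10.20, 10.09 and 8.58. On day 29 the vehicle livers read 9.37, 9.92, 9.07, 9.52 and 9.21 and the treated livers 10.75, 10.75, 9.36, 9.02 and 10.39. On day 29, 3 of the 5 treated livers lay above all vehicle livers and 1 lay below them all. The differences were 0.27 ± 0.40 and 0.64 ± 0.40 (limma adjusted p = 0.9979 and 0.6466), with 95% intervals of -0.56 to 1.09 and -0.18 to 1.46. A rise of up to 2.75-fold on day 29 therefore lay within the interval.

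Across vehicle livers Cyp2b10 was the most variable of the 43 members, with a pooled SD of 0.51 against a median of 0.16 for the members and 0.19 for all genes. In vehicle livers of the Elmiron study its SD was 0.80 on day 15 and 0.33 on day 29. In those of the troglitazone study it was 0.36 and 0.40, so the pooled value leans on 1 group. In linear intensity the Elmiron livers ran from 384 to 1724 and their vehicle livers from 388 to 1547. The troglitazone livers ran from 1665 to 5629 and their vehicle livers from 401 to 816. The ranges of the 2 drugs overlapped, with the highest Elmiron liver (1724) above the lowest troglitazone liver (1665), both of day 29. On day 15 they did not overlap, at 8.58 to 10.30 with Elmiron and 11.53 to 12.46 with troglitazone in log2. Cyp2b10 in the vehicle livers of the Elmiron study minus those of the troglitazone study was 0.10 ± 0.35 on day 15 and 0.09 ± 0.35 on day 29, and limma called 0% of all genes between them on either day.

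The troglitazone effect on Cyp2b10 exceeded the Elmiron effect by 2.40 ± 0.50 on day 15, which is 5.29-fold with an interval of 2.64 to 10.6-fold, but did not pass the test over all genes (limma adjusted p = 0.1933, unadjusted p = 2.125e-05). On day 29 the difference was 1.34 ± 0.50 (adjusted p = 0.2994), and without Elmiron mouse 92 it was 1.52 ± 0.50 (adjusted p = 0.2195). No member was called in this contrast on either day, and of all genes 0.00550% and 0.0934% were called. At an unadjusted p below 0.05, 7 members were higher and 0 lower on day 15, and 5 higher and 2 lower on day 29. These values compare 2 drugs at different doses in separate studies.

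Elmiron liver 91 of day 29 stood apart from the other livers. It read 7.49 for Cyp2c55, where the other 4 treated livers read 10.37 to 11.22, and 12.32 for Cyp1a2, where they read 13.51 to 14.03. Its mean of 10 male-biased liver genes was 11.95, below the 12.59 to 13.33 of the other 39 livers. With this liver the Elmiron difference was -0.24 ± 0.20 for Cyp1a2 and -0.52 ± 0.47 for Cyp2c55, and without it 0.05 ± 0.11 and 0.17 ± 0.23.

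Cyp3a13 was the member with the largest Elmiron difference at an unadjusted p below 0.05. It read 11.04, 11.19, 11.04, 11.11 and 11.30 in vehicle and 12.37, 11.72, 11.27, 11.02 and 11.69 in treated livers on day 29, where 12.37 is liver 91. The difference was 0.48 ± 0.17 (limma adjusted p = 0.5303), and 0.29 ± 0.13 without liver 91 (adjusted p = 0.6048). Elmiron mouse 92 of day 29 also stood apart, with brown adipocyte markers at 8.67 against 7.51 to 7.74 in the other treated livers of that day. Cyp3a11 differed by 0.00 ± 0.08 and -0.09 ± 0.08 and Cyp2e1 by 0.03 ± 0.06 and -0.00 ± 0.06 on days 15 and 29. Cyp1a1 differed by 0.20 ± 0.13 and -0.13 ± 0.13, and Cyp1b1 by -0.25 ± 0.14 and -0.31 ± 0.14. Cyp2s1 was the 1 member without overlap on day 15, at -0.25 ± 0.11, against 1.06% of all genes. On day 29 there was 0 of them, against 1.43% of all genes.

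No member was called with fenretinide in white fat, where limma called 3.95% of all genes on day 15 and 1.34% on day 29. On day 15, 7 of the 43 members lay above 0 (median -0.17, against -0.04 for all genes). On day 29, 31 lay above 0 (median 0.10, against -0.02). Without mice 49 and 58, 10 lay above 0 on day 15 (median -0.16). Without mice 86, 93 and 95, 19 lay above 0 on day 29 (median -0.06). Vehicle mouse 85 was kept, with 9 of 14 hepatocyte markers more than 1 log2 unit over their median in fat. Mouse 58 of day 15, with 4 such markers, was left out. The part of liver transcripts in these counts was not tested. At an unadjusted p below 0.05, 1 member was higher and 3 lower on day 15, and 3 higher and 2 lower on day 29. Vehicle and treated samples did not overlap for 8 members on day 15, against 27.9% of all genes, and for 0 on day 29, against 8.75%. Without the same mice the groups did not overlap for 18 members on day 15, against 47.8% of all genes, and for 10 on day 29, against 27.7%.

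The 8 members without overlap on day 15 were Cyp2b10, Cyp2b13, Cyp2c68, Cyp2e1, Cyp2g1, Cyp2j6, Cyp2j11 and Cyp2j13. Cyp2j13 came nearest the threshold, with 3.83, 4.32 and 4.25 in vehicle and 5.01, 4.82 and 4.44 in treated samples. The difference was 0.62 ± 0.17 (limma adjusted p = 0.05949) at a very dim probe set, and on day 29 it was -0.04 ± 0.15. Cyp2j11 read 5.87, 5.76 and 5.73 against 5.42, 5.57 and 5.27, a difference of -0.36 ± 0.12 (limma adjusted p = 0.1236). Cyp2b10 read 8.0, 7.96 and 7.68 against 7.44, 6.64 and 7.45, a difference of -0.70 ± 0.26 (limma adjusted p = 0.16), and its day 29 difference was -0.00 ± 0.23.

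General epithelium markers stood high in the treated white fat of day 15. Their mean was 8.78 to 10.06 in the 3 treated samples and 6.36 to 7.04 in the 3 vehicle samples, and 7 of 15 were called higher. The hepatocyte means were 6.08 to 7.54 and 6.50 to 8.11. Their part in the P450 values was not tested. Without vehicle mouse 49 and fenretinide mouse 58, the samples with the most liver transcripts, the difference of Cyp2b10 was -0.39 ± 0.29 and that of Cyp2j13 0.68 ± 0.21 (limma adjusted p = 0.5886 and 0.1679).

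Cyp1a1 in white fat read 7.51, 7.56 and 6.94 in vehicle and 5.97, 7.0 and 6.96 in treated mice on day 15, a difference of -0.69 ± 0.35 (limma adjusted p = 0.3007). On day 29 it read 7.76, 7.95, 7.62 and 7.13 against 6.16, 7.47, 6.33 and 6.61. Of the 4 treated samples 3 lay below all vehicle samples, and the difference was -0.97 ± 0.30 (limma adjusted p = 0.1378). Without mice 86, 93 and 95, the samples richest in liver transcripts, it was -1.53 ± 0.30 (adjusted p = 0.06506).

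Cyp1b1 read 10.13, 9.80, 9.49 and 9.0 in vehicle and 10.84, 9.93, 10.34 and 10.19 in treated white fat on day 29, a difference of 0.72 ± 0.27 (limma adjusted p = 0.2279), against -0.02 ± 0.31 on day 15. Cyp2d22, a 2d gene expressed widely outside the liver, differed by 0.17 ± 0.21 on day 15 and 0.59 ± 0.18 on day 29 (limma adjusted p = 0.6993 and 0.1252). Cyp2d10 differed by 2.24 ± 0.92 on day 29, the widest difference of a member in white fat (limma adjusted p = 0.2746). Its samples read 4.38, 4.71, 6.07 and 8.0 in vehicle and 6.77, 8.33, 6.56 and 10.46 in treated mice, and the 8.0, 8.33 and 10.46 belong to mice 86, 93 and 95. Without those 3 it was 1.61 ± 0.69 (adjusted p = 0.3899).

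The change from day 15 to day 29 was not called for any member in white fat either, where limma called 1.33% of all genes for this contrast. There 35 of the 43 members lay above 0 (median 0.33, against 0.01 for all genes), and 0 were higher and 1 lower at an unadjusted p below 0.05. Without mice 49, 58, 86, 93 and 95, 32 lay above 0 (median 0.14) and 0 were called. In the brown fat and Elmiron liver contrasts between days 0% of all genes and 0 members were called.

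Among related genes in white fat on day 15, where 3.95% of all genes were called, limma called 1 of 22 other CAR and PXR targets higher, 1 of 16 receptors and partners lower, and 1 higher and 1 lower of 21 genes in other P450 families. Of 14 genes of electron supply and haem, 4 other Ah receptor targets and 4 flavin monooxygenases, 0 were called. Ephx1, the epoxide hydrolase that acts on P450 products, rose by 1.48 ± 0.25 or 2.78-fold on day 15 (limma adjusted p = 0.00488). Rxra, the shared partner of CAR and PXR, fell by 0.40 ± 0.10 (limma adjusted p = 0.03799), and Cyp4v3, a fatty acid hydroxylase of another P450 family, fell by 0.93 ± 0.21 (adjusted p = 0.02438). Cyp26b1, a P450 of another family that hydroxylates retinoic acid, rose by 4.05 ± 0.21 or 16.6-fold on day 15 (limma adjusted p = 1.886e-07) and by 3.77 ± 0.18 or 13.7-fold on day 29 (adjusted p = 4.529e-07). On day 29 it was the 1 gene called in these 6 lists, where 1.34% of all genes were called. The day 15 calls stand beside the general epithelium markers, of which 7 of 15 were called higher on day 15 and 0 on day 29. Their part in these values was not tested.

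**Figure D5:**
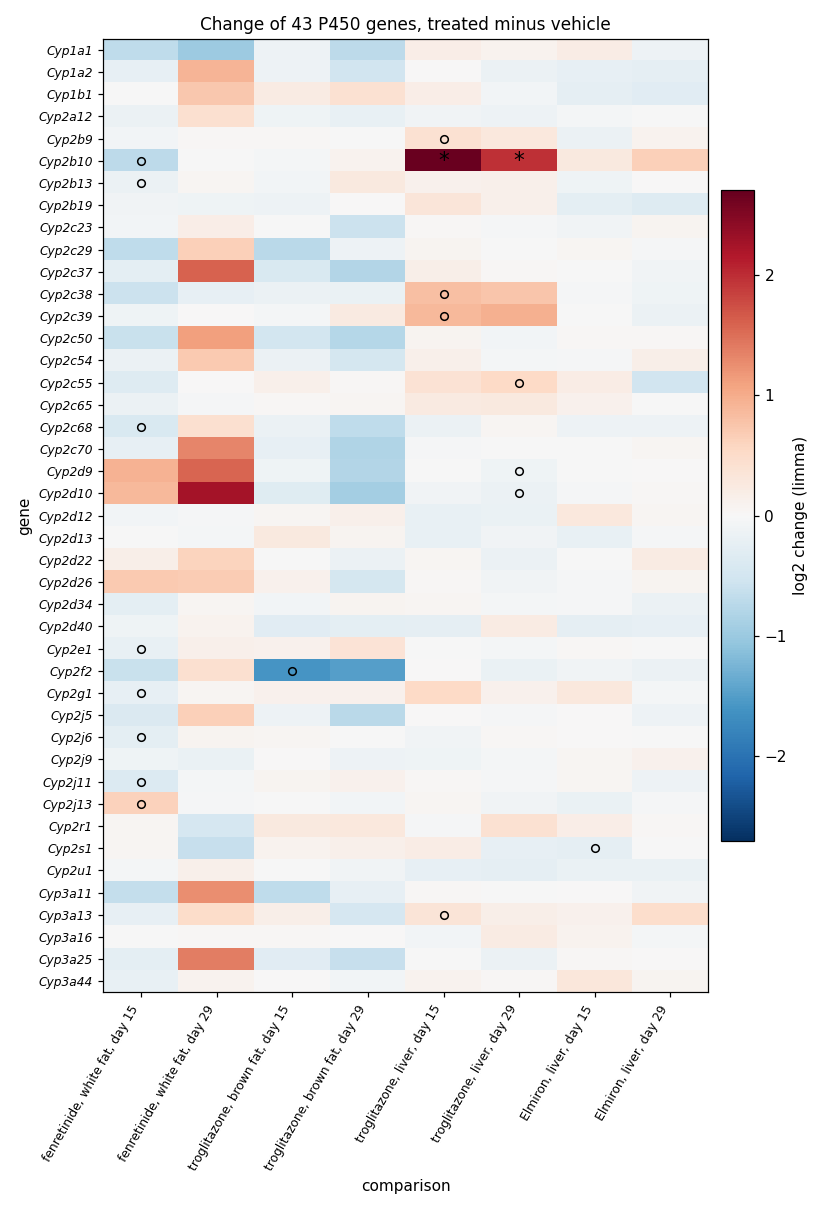
Change of the 43 P450 genes (vertical axis) in the 8 comparisons of treated with vehicle mice (horizontal axis), as log2 change from limma (colour, red for higher). Asterisks mark the 2 values called, both Cyp2b10 in troglitazone liver, and open circles mark uncalled values whose groups do not overlap.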

How the data were processed

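RNA of white fat, brown fat and liver was measured on 74 Affymetrix mouse arrays, 1 per mouse and tissue. The deposited values are an intensity for each probe set on a linear scale, made with RMA (robust multi-array averaging) per the submitters' processing notes. Its version, chip definition and array set could not be taken from the labels, and no detection calls were used. The deposited intensity ran from 7.44 to 39426, and its log2 was taken here before any test. Trizol RNA was labelled as biotin cRNA, per the labels' protocols. No scan date or other batch is given in the labels.

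Of 45101 probe sets, 34945 had 1 gene symbol in the platform annotation, 932 several, 9160 none, and 64 were controls. The number of columns belonging to no sample was 0. Each of 18193 genes was read from its brightest single-symbol probe set. Mouse numbers mark separate animals within a group, and the number of arrays limits the precision. Arrays of a group correlated at 0.9054 to 0.9965 (138 pairs, 0 identical, log2).

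Tests used limma 3.58.1 in R 4.3.3 (lmFit, eBayes), fitted separately for each tissue and study with group means. Contrasts between tissues and between compounds used 40 arrays each. Benjamini-Hochberg adjustment ran over all 18193 genes, and adjusted p below 0.05 was called. Changes are treated minus vehicle with their standard error (SE) in limma. Same-numbered brown fat and liver arrays of the troglitazone study are the same mice per the labels. In the 15 mice that gave both, deviations from group means correlated from -0.135 to 0.151 between the tissues. The animal as a replicate block changed no call.

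The text names Cyp2b10, Cyp3a11, the 3 family 1 genes and Cyp2e1, called members (up to 12 each way for a treatment, 8 for other contrasts), 6 members by vehicle level per tissue, up to 4 in fat by level relative to liver, at least 1 gene per subfamily, up to 3 called genes per list of related genes, and Nr1i2, Nr1i3, Ahr and Alas1. Other genes named, among them Cyp2f2, Cyp2j13, Cyp2c38, Cyp2c39, Cyp2c55 and Cyp3a13 in treated tissue, were chosen after their values were seen. The members, lists and tests were chosen with earlier results of these data known.

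Alternatives were quantile normalization, leaving out the dimmer 50% of genes, averaging a gene's probe sets, median centring, trended and robust eBayes, array weights, the 2 groups alone, vehicle livers from the other study, the animal block and each array left out. Leaving out samples with transcripts of another tissue was added after the data were seen. Promoters were read from RefSeq's table and aligned with Biopython 1.88. Figures were drawn with matplotlib 3.10.9 in Python 3.11.15, and tables made with pandas 2.3.3 and numpy 2.4.6.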

Additional observations from a re-analysis of the deposited data

Results flagged for a closer look

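For Cyp2b10, Cyp3a11, Cyp1a1, Cyp1a2, Cyp1b1 and Cyp2e1, a mouse far from the rest of its group by Dixon's test was found 10 times in 84 groups, where chance gives about 1 in 20. Brown fat of vehicle mouse 82 on day 29 was high for 3 of these genes. It read 12.36 for Cyp3a11 (other mice 4.63 to 6.14), 9.48 for Cyp1a2 (5.37 to 5.76) and 10.43 for Cyp1b1 (7.08 to 7.66). Brown fat of troglitazone mouse 95 on day 29 was high for Cyp1a2 at 6.17 (5.66 to 5.80) and for Cyp2e1 at 14.78 (13.07 to 13.47). Both samples had low brown adipocyte markers. Which tissues the sample of mouse 82 holds was not tested.

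In brown fat on day 15, Cyp1a1 was low at 8.28 in vehicle mouse 45 (8.75 to 8.85), and Cyp1b1 was low at 7.67 in troglitazone mouse 53 (8.10 to 8.20). In liver, Cyp1a2 was high at 14.06 in troglitazone mouse 52 of day 15 (13.71 to 13.78). In white fat on day 29, Cyp2e1 was low at 14.33 in vehicle mouse 86 (14.72 to 14.77), the vehicle sample with the highest hepatocyte mean, and high at 14.99 in fenretinide mouse 94 (14.68 to 14.73).

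The troglitazone effect on Cyp2b10 differed between liver and brown fat, by 2.73 on day 15 and by 1.89 on day 29, in limma's test of the difference itself. With a gene's probe sets averaged, the day 29 difference was 2.0 and was not called (limma adjusted p = 0.0843).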

How the results depend on the processing

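Of 219 recomputed counts of members called, 17 moved by more than 1.5 times from the main count. With array weights the count went from 0 to 3 for fenretinide on day 15, from 0 to 1 for troglitazone in brown fat on day 15, from 1 to 2 and from 1 to 3 for troglitazone in liver on days 15 and 29, from 0 to 1 for the fenretinide contrast between days, from 1 to 2 for liver against brown fat on day 15, and from 0 to 3 for troglitazone against Elmiron on day 29. With the 2 groups alone it was 1 for troglitazone in brown fat on day 15 (Cyp2f2) and 2 for troglitazone in liver on day 15 (Cyp2b10 and Cyp2c38). With the other study's vehicle livers it was 3 and 2 for troglitazone on days 15 and 29 and 1 for Elmiron on day 29 (Cyp3a13). For fenretinide on day 15 it was 1 with quantile normalization (Cyp2j13) and 2 with median centring (Cyp2j6 and Cyp2j11). With a gene's probe sets averaged it was 0 for liver against brown fat on day 29, where the Cyp2b10 difference of 2.0 had an adjusted p of 0.0843. Leaving out each mouse in turn gave counts of 0 to 1 for fenretinide on day 15 (1 without fenretinide mouse 59) and 1 to 3 for troglitazone in liver on day 29. The cause of these moves was not tested.

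Cyp2b10 was called in troglitazone liver under all 18 alternatives on each day, with rises of 2.52 to 2.81 on day 15 (adjusted p 6.41e-07 to 7.86e-05) and 1.76 to 2.14 on day 29 (0.000449 to 0.0203). With the animal as a replicate block, the liver minus brown fat difference of Cyp2b10 on day 29 was 1.876 (adjusted p = 0.02296), and the block changed no call. Of 767 values called in neither fit, 64 changed sign. Counts between vehicle liver and brown fat ran from 25, with the dimmer 50% of genes left out, to 40. Whether the brightness of the Cyp3a11 and Cyp2e1 probe sets limits what they can show in liver was not tested, and 3 to 5 arrays per group limit the precision.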
